A study of Mus musculus with 76 samples.

Results

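The genes described here are 33 regulators of chromatin and transcription that human genetic studies have linked to autism, among them Chd8, Arid1b, Pogz, Kmt2a, Kmt2c, Mbd5, Foxp1 and Myt1l. They were taken by name from a fixed list, and all 33 were found among the 14823 genes of the count table. All 33 passed the filter on low counts, which left 14339 genes to test. By role the list holds 5 chromatin remodellers and their DNA-binding partners, 8 histone methyltransferases, 11 chromatin readers and transcription co-regulators, and 4 sequence-specific transcription factors. The other members are 2 RNA-binding proteins (Celf4, Elavl3) and 3 genes of signalling or protein turnover (Dyrk1a, Trip12, Cul3), which are not chromatin proteins in the strict sense. The link to autism is a statement about human genetics that mouse expression values cannot test.

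The 76 RNA-seq libraries come from C57Bl/6J embryos, whose dorsal forebrain was taken at day 16 of gestation, to ask how exposure of either parent to the pyrethroid insecticide α-cypermethrin before mating bears on the brain of the offspring. In the control group (Ctrl, 12 libraries) both parents had been given vehicle. In the Paternal groups only the father, in the Maternal groups only the mother, and in the Both groups both parents had received α-cypermethrin, on a schedule that lasted 28 days and ended just before mating. Each exists at the doses labelled 0.3 (Paternal_0.3Cyp, Maternal_0.3Cyp and Both_0.3Cyp, 12 libraries each) and 10 (Paternal_10Cyp with 10 libraries, Maternal_10Cyp with 8 and Both_10Cyp with 10). The labels give no unit for the dose. All groups are of 1 strain, with no other genotype given. Each group has embryos of both sexes and libraries of both labelled batches, and what the batches stand for is not said. No litter is named, so p-values measure only the spread between these libraries, some of which may be littermates.

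Chromatin regulators act in large complexes that slide nucleosomes, add or read methyl groups on histone tails, and pass signals between transcription factors and RNA polymerase. Many are sensitive to gene dose, and loss of a single copy of genes such as Chd8 or Arid1b causes neurodevelopmental disorders in people. In the embryonic cortex these proteins are at work both in dividing progenitors and in the young neurons those progenitors produce.

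Library totals ran from 17.7 M to 41.4 M estimated counts, with a median of 19.2 M, and the Both_10Cyp libraries lay between 21.2 M and 34.0 M. Neuronal markers were high in every library: 10 genes such as Neurod6, Dcx and Tubb3 summed to between 7064 and 9527 CPM (counts-per-million units, TMM-scaled). 4 libraries were high in embryonic globin (Paternal_0.3Cyp 3 and 4, Both_10Cyp 7 and 8), and 5 were high in diencephalon markers (Ctrl 3, Paternal_0.3Cyp 6 and 9, Both_0.3Cyp 10, Paternal_10Cyp 1). A further library, Paternal_0.3Cyp 8, stood apart in the members themselves, with a median deviation of -0.77 log2 units from the mean over all libraries, while the next lowest library was at -0.23. Counts without these libraries are given beside the results they move.

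In control forebrain the members spanned a wide range of levels. CPM values were divided by transcript length in kilobases so that genes could be compared. Elavl3, an RNA-binding protein that marks postmitotic neurons, was highest, at 166 ± 9.62 CPM per kilobase (SD, n = 12). It was followed by Celf4, a neuronal regulator of mRNA stability and translation, at 88.3 ± 15.0, and by the transcription factors Tcf4 at 71.7 ± 10.4 and Bcl11a at 68.4 ± 7.70. Tcf4 and Bcl11a differed by less than the spread between libraries. The lowest members were Kmt2c at 6.71 ± 1.19, Asxl3 at 5.21 ± 0.706 and Mbd5 at 4.56 ± 0.348 CPM per kilobase. Even Mbd5 had at least 244 counts in every library, so low counts do not limit any member.

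**Figure D1:**
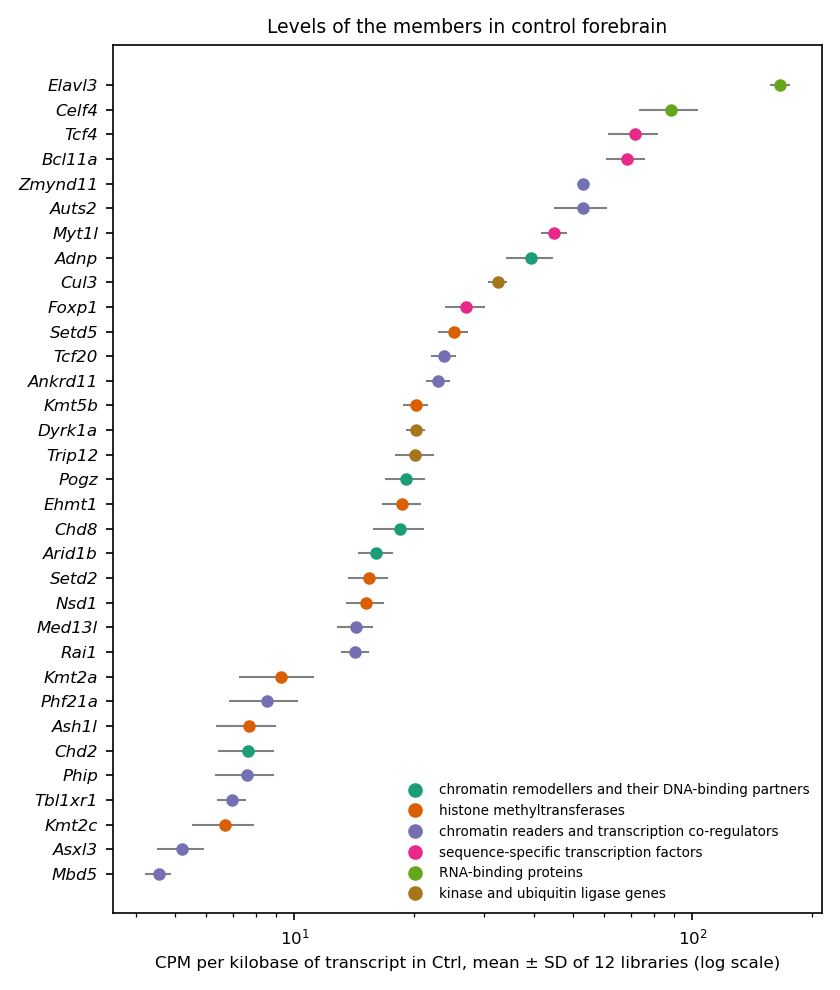
Level of each member in the 12 control libraries, in CPM per kilobase of transcript on a log scale (points, mean; bars, SD; colours, role). The RNA-binding proteins Elavl3 and Celf4 lie at the top and the co-regulators Asxl3 and Mbd5 at the bottom.

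In each exposed group the members were lower than in Ctrl far more often than higher. With edgeR's quasi-likelihood test across all genes, with batch and sex as terms and a Benjamini-Hochberg adjusted p under 0.05, 6 of 33 members fell in Paternal_0.3Cyp (12.2% of all genes tested fell there), 5 in Maternal_0.3Cyp (12.8%) and 4 in Both_0.3Cyp (11.8%). At the higher dose 10 fell in Paternal_10Cyp (10.8%), 18 in Maternal_10Cyp (20.4%) and 2 in Both_10Cyp (1.58%). As shares of the members these are 18.2%, 15.2%, 12.1%, 30.3%, 54.5% and 6.06%, so that the counts in Maternal_0.3Cyp and Both_0.3Cyp were near the share of all genes. No member rose in any of these 6 comparisons, while 15.4%, 10.9%, 10.5%, 10.7%, 20.4% and 2.34% of all genes did, in the same order. At an unadjusted edgeR p under 0.05 there were 11, 10, 10, 16, 24 and 7 members, DESeq2 also called no member higher, limma called 1 higher (Cul3 in Paternal_10Cyp), and the edgeR fold change was above 0 for 1 or 2 of the 33 members in each group. The median log2 fold change over the members was -0.13 in Paternal_0.3Cyp, -0.11 in Maternal_0.3Cyp, -0.10 in Both_0.3Cyp, -0.15 in Paternal_10Cyp, -0.19 in Maternal_10Cyp and -0.10 in Both_10Cyp, against medians between -0.01 and 0.01 over all genes tested. These medians depended on the model: limma gave -0.0192 in Paternal_0.3Cyp and -0.0635 in Maternal_0.3Cyp, and 2 surrogate variables gave -0.0607, -0.0347, -0.0655 and -0.0583 in Paternal_0.3Cyp, Maternal_0.3Cyp, Both_0.3Cyp and Both_10Cyp, but -0.14 in Paternal_10Cyp and -0.19 in Maternal_10Cyp. These are small differences: the largest single fall was 30.2%, for Kmt2c in Maternal_10Cyp. The 6 comparisons share the 12 Ctrl libraries, so they are not independent of each other. In tissue of many cell types, fewer cells of a type and less RNA per cell cannot be told apart.

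**Figure D2:**
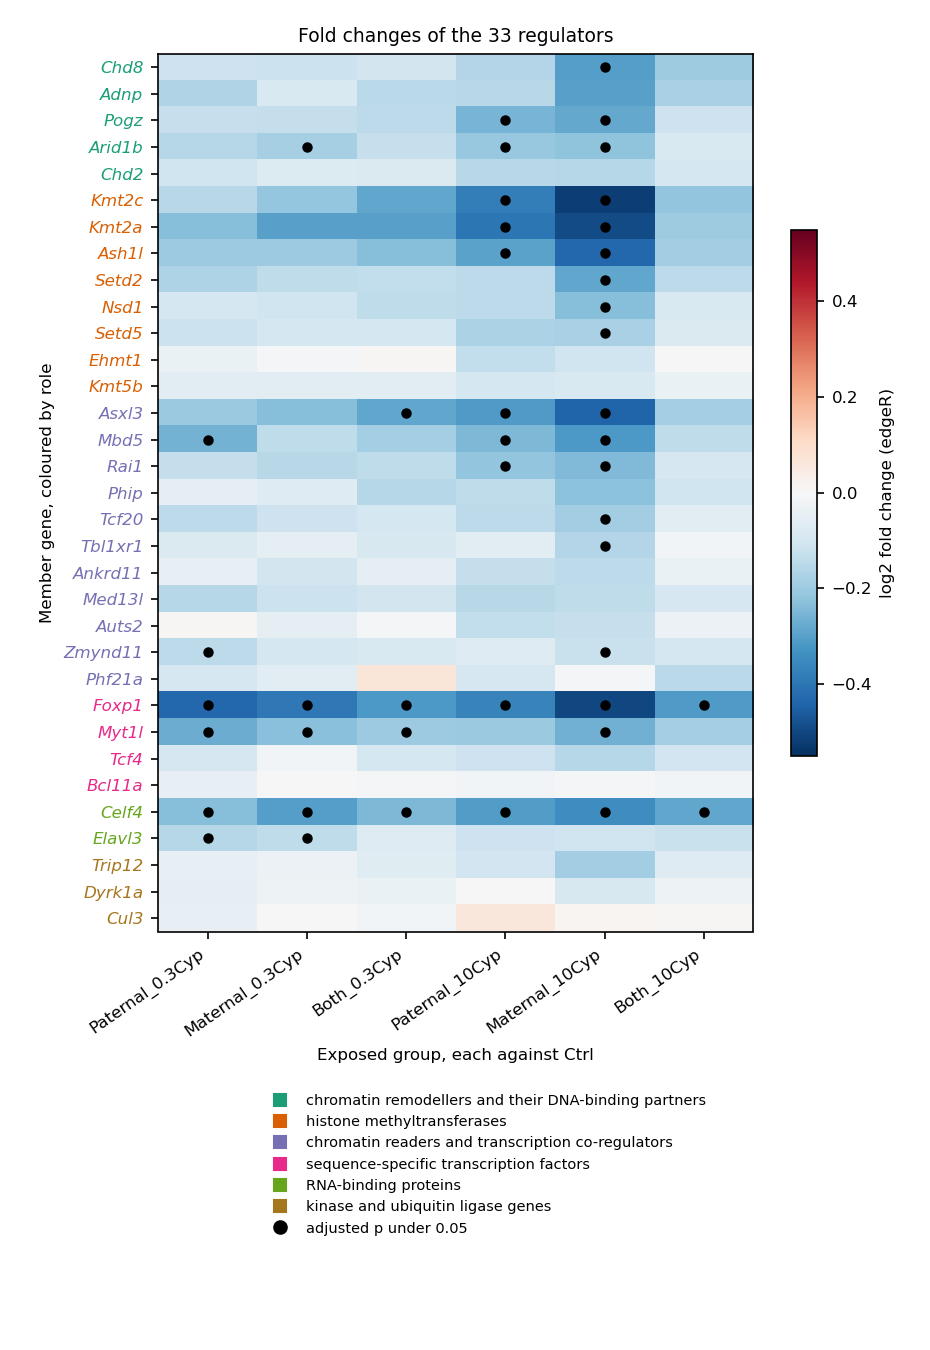
Log2 fold change of each of the 33 members (rows, grouped and coloured by role) in the 6 exposed groups against Ctrl (columns), with blue for lower and red for higher. Black dots mark an edgeR adjusted p under 0.05. All of them lie on blue cells, and the Maternal_10Cyp column holds more than any other column.

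How many members passed depended on single libraries in 4 of the 6 comparisons. The counts that follow stand without the share of all genes called in the same refits. They therefore do not show moves, or a lack of them, particular to the members. In Maternal_0.3Cyp 3 in place of 5 were called without Ctrl 7, Ctrl 12 or Maternal_0.3Cyp 5. In Both_0.3Cyp the 4 became 1 without Ctrl 3 and 2 without Ctrl 7, Ctrl 12 or Both_0.3Cyp 7. In Paternal_10Cyp the 10 became 6 without Ctrl 7 or Ctrl 12, 4 without Paternal_10Cyp 1 and 3 without Paternal_10Cyp 2, 5 or 6. In Both_10Cyp the 2 became 0 without Ctrl 3, 7, 8, 9 or 12 or Both_10Cyp 7 or 8, and 1 without Ctrl 4, 10 or 11 or Both_10Cyp 1, 2 or 9. In Paternal_0.3Cyp the count stayed between 5 and 9, but without Paternal_0.3Cyp 8 the members' median moved from -0.13 to -0.07. Maternal_10Cyp kept 15 to 20 called members, whichever of its libraries or the Ctrl libraries was left out. On leaving out the libraries rich in diencephalon markers, an alternative added after seeing the data, 2 members were called in Both_0.3Cyp, 3 in Paternal_10Cyp and 0 in Both_10Cyp, and without those high in embryonic globin 0 were called in Both_10Cyp.

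The 4 members of lowest p over all groups whose promoters are printed here are Foxp1, Pogz, Kmt2c and Mbd5. Each sequence runs 5′ to 3′ on the gene's strand, from 250 bases before to 50 bases after a transcription start, from RefSeq (GRCm38.p6). Foxp1 (1 of 3 listed starts) lies at chr6:99520944-99521243 on the minus strand, Pogz at chr3:94837187-94837486 on the plus strand, Kmt2c at chr5:25498734-25499033 on the minus strand, and Mbd5 (1 of 2 starts) at chr2:48949258-48949557 on the plus strand. Capitals mark the motifs named after the sequences.
Foxp1: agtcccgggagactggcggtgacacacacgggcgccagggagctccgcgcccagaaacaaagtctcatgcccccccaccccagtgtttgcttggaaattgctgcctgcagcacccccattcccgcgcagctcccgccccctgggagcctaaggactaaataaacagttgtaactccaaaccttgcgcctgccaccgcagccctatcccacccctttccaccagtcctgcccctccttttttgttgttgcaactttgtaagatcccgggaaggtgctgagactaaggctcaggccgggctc
Pogz: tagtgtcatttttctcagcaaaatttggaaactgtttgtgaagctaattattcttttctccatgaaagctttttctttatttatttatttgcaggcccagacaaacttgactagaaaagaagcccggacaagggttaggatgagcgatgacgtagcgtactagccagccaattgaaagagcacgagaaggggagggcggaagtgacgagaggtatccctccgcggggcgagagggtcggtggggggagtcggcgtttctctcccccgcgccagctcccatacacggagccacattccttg
Kmt2c: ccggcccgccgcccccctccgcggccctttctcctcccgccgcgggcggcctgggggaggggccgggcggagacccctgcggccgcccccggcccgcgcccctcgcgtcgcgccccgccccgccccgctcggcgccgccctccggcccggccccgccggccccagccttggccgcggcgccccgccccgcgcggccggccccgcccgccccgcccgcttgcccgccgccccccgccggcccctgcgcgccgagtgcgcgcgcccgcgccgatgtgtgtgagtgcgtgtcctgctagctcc
Mbd5: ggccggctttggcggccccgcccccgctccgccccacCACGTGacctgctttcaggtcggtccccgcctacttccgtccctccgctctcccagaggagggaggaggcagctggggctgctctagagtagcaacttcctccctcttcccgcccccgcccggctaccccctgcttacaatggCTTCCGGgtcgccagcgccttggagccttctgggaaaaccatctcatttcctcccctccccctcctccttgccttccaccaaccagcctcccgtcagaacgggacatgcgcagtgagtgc
The 4 promoters differ widely in make-up, from 50% G and C in Pogz to 88.0% in Kmt2c, with 13 CpG dinucleotides in Foxp1 and 56 in Kmt2c.

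Of the 33 members, 26 had at least 1 such window, 40 windows in all. 4 short motifs were searched on both strands: CCGGAAG (a core of ETS factor sites), GCGCATGC (a core of NRF1 sites), AAGATGGC (a core of YY1 sites) and the E-box CACGTG. None of the 4 contains another. CCGGAAG was found in 5.00% of the members' windows and in 15.6% of the 14329 windows of tested genes, and CACGTG in 5.00% and 9.50%. GCGCATGC was in 0 of the 40 windows and in 4.83% of those of tested genes, and AAGATGGC in 0 and in 3.95%. Among the printed promoters Mbd5 alone held any of them, the E-box and 1 CTTCCGG, which is CCGGAAG on the other strand. The members' windows had a median G and C content of 69.7%, against 60.7% for tested genes, and a median of 27.5 against 20 CpG dinucleotides. These letters describe the windows and say nothing of which factors bind there.

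Among the transcription factors, Foxp1 and Myt1l fell and the basic helix-loop-helix factor Tcf4 and Bcl11a did not pass in any group. Foxp1 (chr6:98925338-99522721, minus strand, GRCm38, GENCODE M21) encodes a forkhead repressor found in cortical projection neurons and striatal neurons. Its level in Ctrl ran from 159 to 228 CPM with a median of 193. The lowest, median and highest values were 88.0, 148 and 193 CPM in Paternal_0.3Cyp, 119, 149 and 176 in Maternal_0.3Cyp, and 137, 151 and 184 in Both_0.3Cyp. At the higher dose they were 118, 150 and 188 in Paternal_10Cyp, 121, 140 and 151 in Maternal_10Cyp, and 114, 160 and 198 in Both_10Cyp. Every Maternal_10Cyp library thus lay below every Ctrl library, and the other exposed groups overlapped with Ctrl. The share of all genes that separate in this way is not given, so it is not shown to be unusual. In Maternal_10Cyp 20.4% of all genes tested fell.

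Foxp1 was 1 of 2 members to fall in all 6 groups, by 0.43 ± 0.09 in Paternal_0.3Cyp (log2, ± SE, n = 12 against 12, edgeR adjusted p = 0.00250), 0.39 ± 0.09 in Maternal_0.3Cyp (adjusted p = 0.00462) and 0.31 ± 0.09 in Both_0.3Cyp (adjusted p = 0.0134). It fell by 0.37 ± 0.10 in Paternal_10Cyp (edgeR adjusted p = 0.00810), 0.50 ± 0.10 in Maternal_10Cyp (adjusted p = 0.000247) and 0.31 ± 0.10 in Both_10Cyp (adjusted p = 0.0481). Of the 64 exposed libraries, 62 lay below the Ctrl mean. The Both_10Cyp call was lost on leaving out any of 13 of its 22 libraries, with fold changes between -0.36 and -0.26.

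Myt1l (chr12:29528384-29923213, plus strand) encodes a zinc finger protein that represses non-neuronal genes in neurons. Its Ctrl libraries ran from 292 to 358 CPM with a median of 317, and the medians of the exposed groups lay between 263 CPM in Maternal_10Cyp and 291 CPM in Both_10Cyp. Paternal_0.3Cyp reached furthest down, with a lowest library of 149 CPM and a highest of 321. Myt1l fell by 0.27 ± 0.07 in Paternal_0.3Cyp (edgeR adjusted p = 0.00631), 0.23 ± 0.07 in Maternal_0.3Cyp (adjusted p = 0.0204), 0.20 ± 0.07 in Both_0.3Cyp (adjusted p = 0.0413) and 0.26 ± 0.08 in Maternal_10Cyp (adjusted p = 0.00829). The Both_0.3Cyp call was lost on leaving out any of 15 of its 24 libraries. That of Paternal_0.3Cyp held on leaving out any 1 library, with fold changes between -0.30 and -0.21. In Paternal_10Cyp Myt1l narrowly missed the threshold, at -0.20 (adjusted p = 0.0502). Bcl11a, a zinc finger repressor of deep-layer neurons, had a fold change of -0.01 ± 0.06 in Maternal_10Cyp, where Foxp1 had its largest fall.

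Both RNA-binding proteins passed in at least 2 groups. Celf4, on chromosome 18, was the other member to fall in all 6. Its level ran from 281 to 484 CPM in Ctrl with a median of 342. The lowest, median and highest values were 206, 304 and 441.5 CPM in Paternal_0.3Cyp, 226, 290 and 347 in Maternal_0.3Cyp, and 261, 288 and 360 in Both_0.3Cyp. They were 235, 286 and 336 CPM in Paternal_10Cyp, 251, 276 and 306 in Maternal_10Cyp, and 213, 302 and 328 in Both_10Cyp. All 6 exposed groups overlapped with Ctrl, and their medians lay close to the bottom of its range.

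Celf4 fell by 0.23 ± 0.08 in Paternal_0.3Cyp (edgeR adjusted p = 0.0193), 0.30 ± 0.08 in Maternal_0.3Cyp (adjusted p = 0.00618) and 0.25 ± 0.08 in Both_0.3Cyp (adjusted p = 0.0174). The falls were 0.31 ± 0.08 in Paternal_10Cyp (edgeR adjusted p = 0.00810), 0.34 ± 0.09 in Maternal_10Cyp (adjusted p = 0.00150) and 0.28 ± 0.08 in Both_10Cyp (adjusted p = 0.0362). The Celf4 call was lost in Both_0.3Cyp without Ctrl 3 and in Both_10Cyp without Ctrl 3, 7, 8, 9 or 12 or Both_10Cyp 7 or 8. In Paternal_0.3Cyp it was lost without Ctrl 3 (-0.17), Paternal_0.3Cyp 4 (-0.19) or Paternal_0.3Cyp 8 (-0.21). Elavl3 fell by less, 0.16 ± 0.05 in Paternal_0.3Cyp (edgeR adjusted p = 0.0111) and 0.14 ± 0.05 in Maternal_0.3Cyp (adjusted p = 0.0251), and passed in no other group. Without Paternal_0.3Cyp 8, at 450 CPM where the next library of its group was at 651, the Elavl3 fold change in that group was -0.10 and was still called. The Maternal_0.3Cyp call was lost without Ctrl 7, Ctrl 12 or Maternal_0.3Cyp 5.

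**Figure D3:**
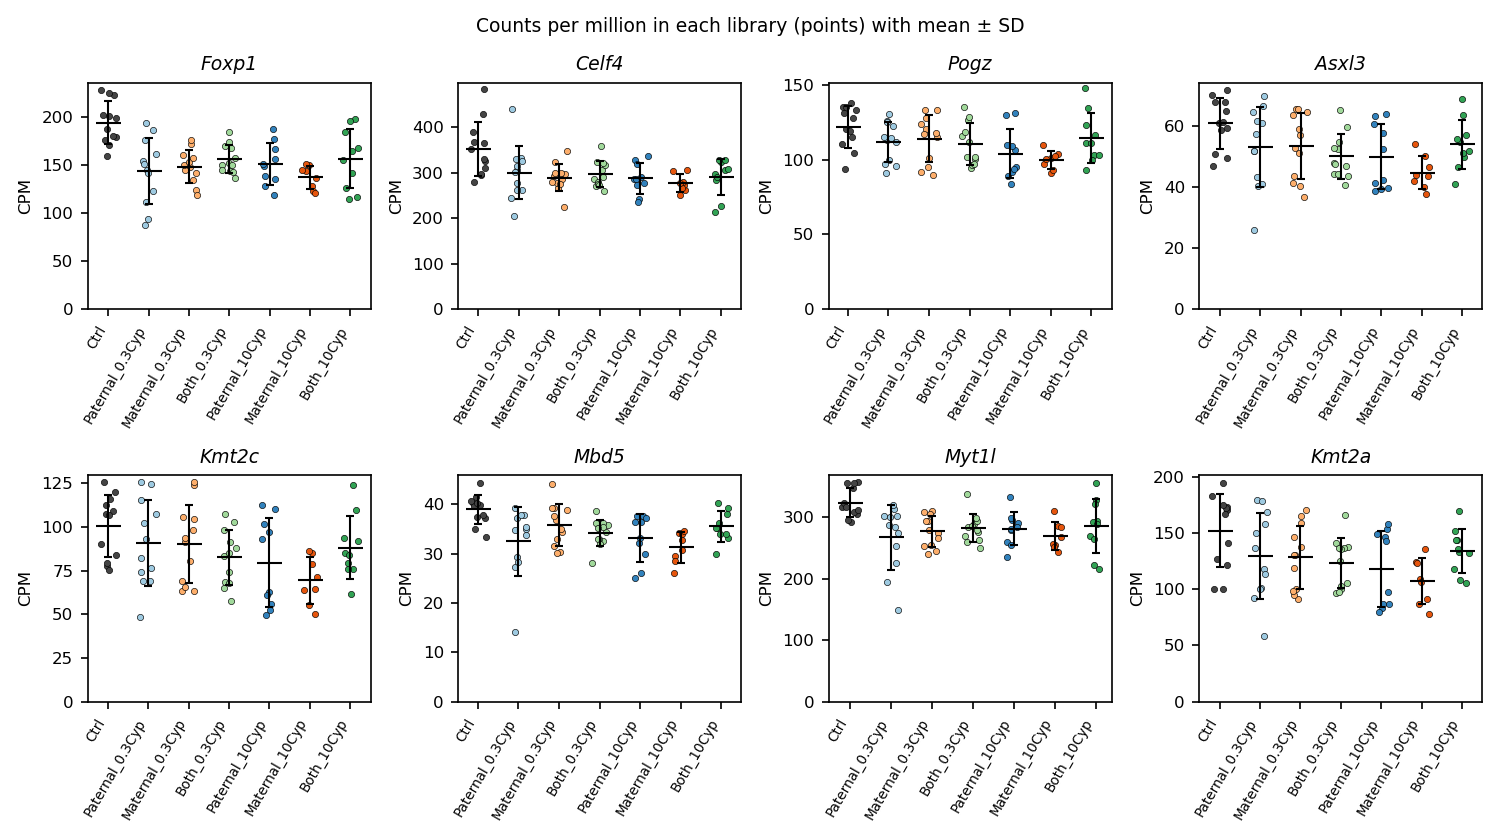
CPM of the 8 members of lowest p in the joint test, in every library (points) by group, with mean and SD (bars). Foxp1 libraries of Maternal_10Cyp (121 to 151 CPM) all lie below those of Ctrl (159 to 228 CPM), while for Kmt2c, Kmt2a and Pogz the groups overlap. How common such a separation is among all genes is not given.

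Histone methyltransferases held the largest single fall of the set (Kmt2c). Of the 8, 6 fell in Maternal_10Cyp (20.4% of all genes tested) and 3 in Paternal_10Cyp (10.8%). None fell in Paternal_0.3Cyp (12.2%), Maternal_0.3Cyp (12.8%), Both_0.3Cyp (11.8%) or Both_10Cyp (1.58%), where 2, 1, 3 and 1 had an unadjusted edgeR p under 0.05. All 8 lie in the longest of 5 classes of transcript length. In that class 48.4% of the genes that are not members fell in Maternal_10Cyp and 26.1% in Paternal_10Cyp. Kmt2c and Kmt2a encode the catalytic subunits of COMPASS-type complexes that methylate histone H3 at enhancers and promoters. Kmt2c (chr5:25271798-25498783, minus strand) ran from 75.6 to 126 CPM in Ctrl with a median of 107, and from 50.1 to 86.3 CPM in Maternal_10Cyp with a median of 68.1. Its medians elsewhere were 87.7 CPM in Paternal_0.3Cyp, 92.5 in Maternal_0.3Cyp, 84.5 in Both_0.3Cyp, 77.8 in Paternal_10Cyp and 84.3 in Both_10Cyp. The control range is wide for this gene, and every exposed group overlapped with it.

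Kmt2c fell by 0.52 ± 0.13 in Maternal_10Cyp (n = 8 against 12, edgeR adjusted p = 0.00184) and by 0.38 ± 0.12 in Paternal_10Cyp (adjusted p = 0.0251). Kmt2a (chr9:44803355-44881296, minus strand) fell by 0.49 ± 0.13 in Maternal_10Cyp (edgeR adjusted p = 0.00272) and by 0.40 ± 0.12 in Paternal_10Cyp (adjusted p = 0.0196). In Paternal_10Cyp both calls were lost without Paternal_10Cyp 2, 5 or 6, and that of Kmt2c also without Paternal_10Cyp 1. The Ctrl libraries of Kmt2a ran from 100.02 to 195 CPM with a median of 169, and those of Maternal_10Cyp from 78.3 to 136 CPM with a median of 108. The medians of the other groups lay between 120 CPM in Paternal_10Cyp and 134 CPM in Both_10Cyp, below the Ctrl median and within its range.

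The other methyltransferases followed at smaller size. Ash1l, which methylates histone H3 within active genes, fell by 0.43 ± 0.11 in Maternal_10Cyp (edgeR adjusted p = 0.00225) and 0.30 ± 0.11 in Paternal_10Cyp (adjusted p = 0.0393). Setd2, which places the trimethyl mark behind elongating RNA polymerase, fell by 0.29 ± 0.08 in Maternal_10Cyp (edgeR adjusted p = 0.00299). Nsd1, which places the dimethyl mark on the same residue, fell by 0.23 ± 0.09, and the SET domain gene Setd5 by 0.18 ± 0.07, both in Maternal_10Cyp (edgeR adjusted p = 0.0270 and 0.0444). The Setd5 call was lost on leaving out any of 14 of 20 libraries, that of Nsd1 without Ctrl 5 or Maternal_10Cyp 1, 5 or 6, and that of Ash1l in Paternal_10Cyp on leaving out any of 13 of 22. Ehmt1 and Kmt5b, which methylate other histone residues tied to silent chromatin, did not pass in any group (-0.11 ± 0.07 and -0.08 ± 0.06 in Maternal_10Cyp).

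Of the 5 remodellers and their DNA-binding partners, 3 fell in Maternal_10Cyp (20.4% of all genes tested), 2 in Paternal_10Cyp (10.8%) and 1 in Maternal_0.3Cyp (12.8%). Pogz (chr3:94837567-94882326, plus strand), a zinc finger protein that binds heterochromatin protein HP1, ran from 93.8 to 138 CPM in Ctrl with a median of 124. In Maternal_10Cyp it ran from 91.2 to 110 CPM with a median of 101, and in Paternal_10Cyp from 83.5 to 131 with a median of 101. It fell by 0.28 ± 0.07 in Maternal_10Cyp (edgeR adjusted p = 0.00163) and 0.25 ± 0.07 in Paternal_10Cyp (adjusted p = 0.00837). Its medians in the other groups were 114 CPM in Paternal_0.3Cyp, 117 in Maternal_0.3Cyp, 107 in Both_0.3Cyp and 111 in Both_10Cyp, all inside the control range.

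Chd8, a chromodomain helicase and among the genes most often disrupted in autism, fell in Maternal_10Cyp alone, by 0.30 ± 0.09 (edgeR adjusted p = 0.00687). Arid1b, a DNA-binding subunit of the BAF remodelling complex, fell by 0.18 ± 0.07 in Maternal_0.3Cyp (edgeR adjusted p = 0.0379), 0.21 ± 0.07 in Paternal_10Cyp (adjusted p = 0.0271) and 0.22 ± 0.07 in Maternal_10Cyp (adjusted p = 0.0144). The Arid1b call was lost in Maternal_0.3Cyp on leaving out any of 10 of 24 libraries, and in Paternal_10Cyp without Ctrl 7 or 12 or Paternal_10Cyp 1, 2, 5 or 6. Adnp, a zinc finger and homeobox protein that works with a chromodomain helicase and HP1, had a fold change of -0.30 ± 0.13 in Maternal_10Cyp and did not pass (edgeR adjusted p = 0.0588). Chd2, a relative of Chd8, stood at -0.15 ± 0.07 there and did not pass either.

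Among the 11 readers and co-regulators, 6 fell in Maternal_10Cyp (20.4% of all genes tested), 3 in Paternal_10Cyp (10.8%), 2 in Paternal_0.3Cyp (12.2%) and 1 in Both_0.3Cyp (11.8%). Mbd5 (chr2:48949508-49325405, plus strand) has a methyl-CpG-binding domain and joins Asxl3 as a partner of the deubiquitinase that removes ubiquitin from histone H2A. It ran from 33.4 to 44.4 CPM in Ctrl with a median of 39.8, and from 26.0 to 34.6 CPM in Maternal_10Cyp with a median of 31.7, so that the groups overlapped between 33.4 and 34.6 CPM. Mbd5 fell by 0.26 ± 0.08 in Paternal_0.3Cyp (edgeR adjusted p = 0.0116), 0.25 ± 0.08 in Paternal_10Cyp (adjusted p = 0.0265) and 0.32 ± 0.09 in Maternal_10Cyp (adjusted p = 0.00327). The Paternal_10Cyp call was lost without Ctrl 12 or Paternal_10Cyp 1, 2, 5 or 6. In Paternal_0.3Cyp the lowest library was at 14.2 CPM. The call there held on leaving out any 1 library, with fold changes between -0.29 and -0.18. The Mbd5 median was 34.9 CPM in Paternal_0.3Cyp, 35.9 in Maternal_0.3Cyp, 34.8 in Both_0.3Cyp, 34.8 in Paternal_10Cyp and 35.2 in Both_10Cyp.

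Asxl3, on chromosome 18, ran from 47.0 to 71.9 CPM in Ctrl with a median of 61.3, and from 37.7 to 54.1 CPM in Maternal_10Cyp with a median of 43.9. It fell by 0.44 ± 0.11 in Maternal_10Cyp (edgeR adjusted p = 0.00141), 0.31 ± 0.10 in Paternal_10Cyp (adjusted p = 0.0270) and 0.29 ± 0.10 in Both_0.3Cyp (adjusted p = 0.0305). Its call was lost in Paternal_10Cyp without Ctrl 3 or 7 or Paternal_10Cyp 1, 2, 5 or 6, and in Both_0.3Cyp without Ctrl 3, 7 or 12 or Both_0.3Cyp 7. Its medians in the remaining groups were 54.8 CPM in Paternal_0.3Cyp, 54.9 in Maternal_0.3Cyp and 53.3 in Both_10Cyp. Zmynd11, which reads a methyl mark on a histone H3 variant, had the smallest spread of all members in Ctrl (coefficient of variation 3.51%). It fell by 0.14 ± 0.04 in Paternal_0.3Cyp (edgeR adjusted p = 0.00631) and 0.12 ± 0.04 in Maternal_10Cyp (adjusted p = 0.0162). The Paternal_0.3Cyp call held on leaving out any 1 library, with fold changes between -0.16 and -0.10.

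Rai1, a nucleosome-binding regulator deleted in Smith-Magenis syndrome, fell by 0.22 ± 0.08 in Paternal_10Cyp (edgeR adjusted p = 0.0373) and 0.24 ± 0.08 in Maternal_10Cyp (adjusted p = 0.0153). Its paralogue Tcf20 fell by 0.19 ± 0.07 and Tbl1xr1, a subunit of the NCoR corepressor, by 0.16 ± 0.06, both in Maternal_10Cyp (edgeR adjusted p = 0.0165 and 0.0258). The Rai1 call in Paternal_10Cyp was lost on leaving out any of 14 of 22 libraries, and that of Tbl1xr1 without Ctrl 5 or 10 or Maternal_10Cyp 3 or 6. Ankrd11, Auts2, Med13l, Phf21a and Phip did not pass in any group. Phf21a, part of the CoREST demethylase complex, had the widest error of these, -0.01 ± 0.13 in Maternal_10Cyp (95% interval -0.27 to 0.25).

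None of the 3 kinase and ubiquitin ligase genes passed in any group with edgeR. Cul3, the scaffold of a family of ubiquitin ligases, was the 1 member above 0 in Maternal_10Cyp, at 0.01 ± 0.04. Its level ran from 139 to 166 CPM in Ctrl with a median of 154. The medians of the exposed groups were 150 CPM in Paternal_0.3Cyp, 154 in Maternal_0.3Cyp, 151.5 in Both_0.3Cyp, 161 in Paternal_10Cyp, 155 in Maternal_10Cyp and 154 in Both_10Cyp. Dyrk1a, a kinase in the Down syndrome region, was at -0.09 ± 0.05 and the ubiquitin ligase Trip12 at -0.19 ± 0.08 in Maternal_10Cyp (edgeR adjusted p = 0.202 and 0.0580).

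Over members, 14 of the 33 passed in no group, 6 in 1, 7 in 2, 3 in 3 (Arid1b, Mbd5 and Asxl3), 1 in 4 (Myt1l) and 2 in all 6 (Foxp1 and Celf4). Of all genes tested, between 1.58% (Both_10Cyp) and 20.4% (Maternal_10Cyp) fell in a single group. The tally over several groups was not made for all genes, so it does not show whether such recurrence is unusual. A joint edgeR test of any difference between the 6 exposed groups and Ctrl called 8 members, where 21.7% of all genes were called. The 8 were Foxp1 (adjusted p = 0.00258), Celf4 (0.0108), Pogz (0.0235), Asxl3 (0.0369), Kmt2c (0.0386), Mbd5, Myt1l and Kmt2a. The count moved between 2 and 16 as single libraries were left out, and 16 were called without Paternal_0.3Cyp 8. The 24 other libraries that moved it by over 1.5 times lowered it, to 2 without Ctrl 3, 5, 7 or 12 or Maternal_10Cyp 5 or 6, to 3 without Ctrl 8, 9 or 10 or Maternal_10Cyp 1 or 8, and to 4 without Ctrl 11, Maternal_10Cyp 3 or Paternal_10Cyp 1, 2 or 5. It was 5 without Ctrl 4, Paternal_0.3Cyp 3, 4 or 6, Maternal_0.3Cyp 3 or 8, Paternal_10Cyp 4 or Both_10Cyp 9, and 3 on leaving out the libraries rich in diencephalon markers. The share of all genes called in these refits is not given, so the moves are not shown to be particular to the members.

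Differences between exposed groups were tested as contrasts in the same fit, and no member passed. Within the exposed parent, dose 10 against 0.3 gave 0 called members for fathers (0.0628% of all genes called), 0 for mothers (0%) and 0 for both parents (0.00697%). At an unadjusted edgeR p under 0.05 there were 1, 5 and 0 members, and neither DESeq2 nor limma called any. In mothers the 5 were Kmt2c, Pogz, Ash1l, Chd8 and Mbd5, all lower at the higher dose. Kmt2c differed by -0.31 ± 0.13 (95% interval -0.57 to -0.04, edgeR adjusted p = 0.537). In fathers the 1 was Cul3, at 160 CPM at the higher and 148 CPM at the lower dose, a log2 difference of 0.11 ± 0.03 (edgeR adjusted p = 0.206). For Foxp1 the difference between doses was 0.07 in fathers (95% interval -0.12 to 0.25) and -0.11 in mothers (-0.31 to 0.10), intervals that hold differences in either direction.

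Exposed mothers against exposed fathers gave 0 called members at dose 0.3 (0.00697% of all genes) and 0 at dose 10 (0%), with 0 members at an unadjusted edgeR p under 0.05 and 0 calls by DESeq2 and limma. Adding an exposed father to an exposed mother gave 0 called members at dose 0.3 (0%) and 0 at dose 10 (0%), with 0 and 6 at an unadjusted edgeR p under 0.05. At dose 10, 29 of the 33 members were higher in Both_10Cyp than in Maternal_10Cyp, with a median log2 difference of 0.11 against 0.01 over all genes. Kmt2c stood at 88.1 CPM in Both_10Cyp and 69.5 CPM in Maternal_10Cyp, a log2 difference of 0.30 ± 0.14 (95% interval 0.03 to 0.57, edgeR adjusted p = 0.424), and Tbl1xr1, Pogz, Asxl3 and Kmt2a had the same adjusted p. The tools differed here, since DESeq2 called none and limma with quality weights called 9. Male against female embryos gave 0 called members (0.0907% of all genes), 0 at an unadjusted edgeR p under 0.05 and 0 with DESeq2 and limma, and the lowest p belonged to Ehmt1 (-0.05 ± 0.04).

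Transcript length moved with these differences. The members are long: their longest annotated transcripts run from 3995 (Celf4) to 16470 bases (Kmt2a), with a median of 7417 against 3235 for all genes tested. By length, with the genes tested cut into 5 classes of equal size, 28 of the 33 lie in the longest class and 5 in the next. Among genes that are not members, the median log2 fold change in Maternal_10Cyp went from 0.18 in the shortest class through 0.06, -0.00 and -0.08 to -0.21 in the longest, and the 28 members there had a median of -0.21 as well. In that longest class 48.4% of the genes that are not members fell in Maternal_10Cyp, 26.1% in Paternal_10Cyp, 25.3% in Paternal_0.3Cyp, 24.8% in Maternal_0.3Cyp, 25.7% in Both_0.3Cyp and 2.22% in Both_10Cyp. Within the members the Spearman correlation of length with the fold change in Maternal_10Cyp was -0.51 over 33 genes, and -0.20, -0.35, -0.47, -0.47 and -0.28 in Paternal_0.3Cyp, Maternal_0.3Cyp, Both_0.3Cyp, Paternal_10Cyp and Both_10Cyp. Among the members at the low end in Maternal_10Cyp, Kmt2a, Kmt2c, Asxl3 and Ash1l were among the longest. Celf4 was low as well and is the shortest member, yet its 3995 bases lie above the median of 3235 for all genes tested. G and C content was close to that of other genes (median 47.9% against 50.4%), and its correlation with the fold change over members lay between -0.23 in Maternal_0.3Cyp and 0.17 in Both_0.3Cyp, at 0.12 in Maternal_10Cyp.

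The test was repeated with per-library offsets smoothed on G and C content and transcript length. The members' medians then became -0.00 in Paternal_0.3Cyp, 0.02 in Maternal_0.3Cyp, 0.04 in Both_0.3Cyp, 0.02 in Paternal_10Cyp, 0.05 in Maternal_10Cyp and 0.01 in Both_10Cyp, with medians over all genes of 0.01 to 0.03. Members called lower numbered 5 in Paternal_0.3Cyp (8.8% of all genes with the same offsets), 2 in Maternal_0.3Cyp (9.68%), 1 in Both_0.3Cyp (7.62%), 1 in Paternal_10Cyp (2.97%), 2 in Maternal_10Cyp (11.6%) and 1 in Both_10Cyp (0.586%). Called higher were Dyrk1a in Paternal_10Cyp (4.75% of all genes) and 5 members in Maternal_10Cyp (20.5%), namely Arid1b, Ankrd11, Med13l, Nsd1 and Cul3. Arid1b went from -0.22 to 0.14 (edgeR adjusted p = 0.00600) and Nsd1 from -0.23 to 0.13 (adjusted p = 0.0379), so their direction turned.

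Celf4 was called lower in all 6 groups under these offsets as well, from -0.19 ± 0.07 in Paternal_0.3Cyp (edgeR adjusted p = 0.0345) to -0.27 ± 0.07 in Maternal_0.3Cyp (adjusted p = 0.00894). Foxp1 was called lower in Paternal_0.3Cyp (-0.33 ± 0.08, edgeR adjusted p = 0.00764), Maternal_0.3Cyp (-0.30 ± 0.08, adjusted p = 0.0113) and Maternal_10Cyp (-0.29 ± 0.09, adjusted p = 0.00976). In Paternal_0.3Cyp the other 3 members still called were Mbd5 (-0.14), Myt1l (-0.17) and Zmynd11 (-0.11). Kmt2a in Maternal_10Cyp went from -0.49 to -0.06 ± 0.06, Kmt2c from -0.52 to -0.13 ± 0.07, Asxl3 from -0.44 to -0.11 ± 0.06 and Pogz from -0.28 to -0.07 ± 0.05, none of them called. Offsets on length alone, a setting added after seeing the data, gave a median of 0.03 in Maternal_10Cyp, and offsets on G and C content alone left it at -0.15 with 12 members called lower. An offset on length takes out any change shared by long genes, whether it arose in the tissue or in the handling of the RNA, and the 2 cannot be told apart here.

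**Figure D4:**
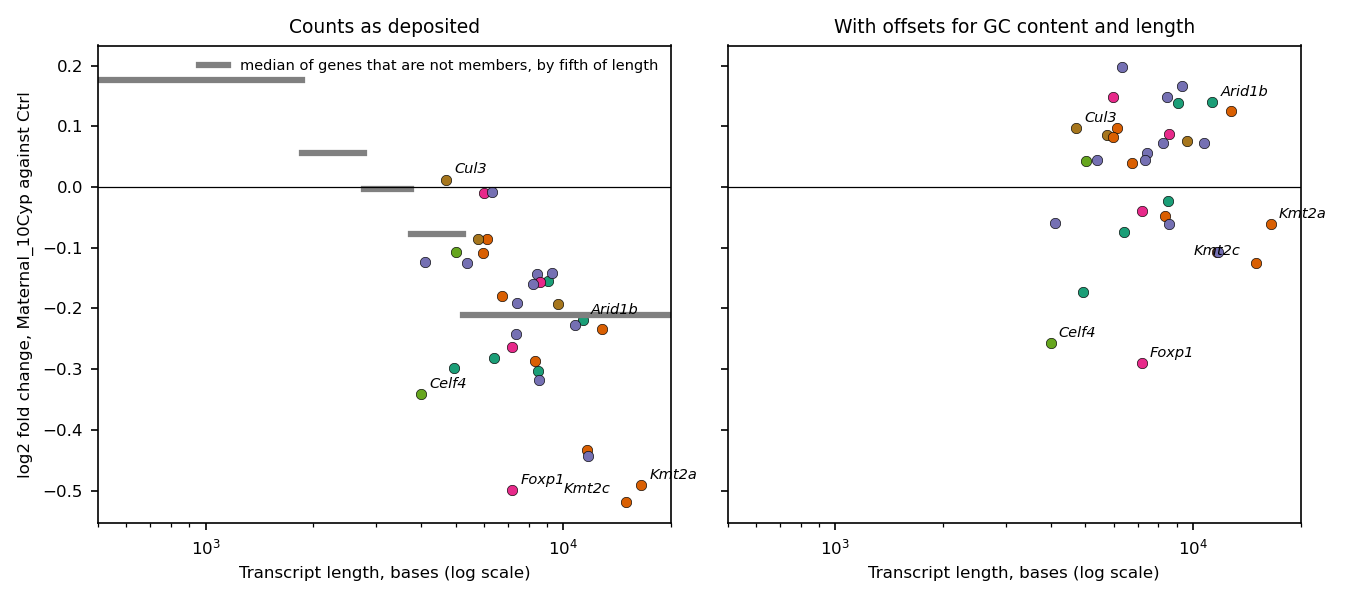
Log2 fold change of the 33 members in Maternal_10Cyp against Ctrl by transcript length on a log scale, from the counts as deposited (left, with grey bars for the medians of genes that are not members in 5 classes of length) and with offsets for G and C content and length (right). On the left 32 of 33 members lie below 0, and on the right Foxp1 and Celf4 are the lowest, where on the left Kmt2c is.

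The same relation held library by library. For each library the slope of its deviations from the gene means on log2 transcript length was taken over genes that are not members, and set beside the median deviation of the 33 members. Over the 76 libraries Pearson's r was 0.949 and Spearman's rho 0.929 (permutation p = 1e-05 for both, the smallest that 100000 permutations can give, 7.5e-05 after adjustment over 30 relations). It was 0.887 in batch 1 and 0.956 in batch 2, and 0.924 without the 2 libraries farthest out. The members are long genes, so a trend on length in a library moves their median with it. These values thus describe long genes and show nothing particular to the members. The permutations over all 76 libraries held neither group nor batch. Within the 12 Ctrl libraries alone r was 0.858 (permutation p = 0.00029) and 0.662 without the 2 farthest, with both batches pooled. Ctrl slopes ran from -0.0391 to 0.0971 in batch 1 and from 0.0856 to 0.161 in batch 2. The members' medians there ran from -0.14 to 0.22 and from 0.14 to 0.28. The permutation did not hold batch, so its p-value does not separate the batch difference from a relation within a batch. The slope on G and C content gave r = -0.615 and rho = -0.577 (permutation p = 1e-05 for both), -0.567 in batch 1 and -0.562 in batch 2, and -0.557 without the 2 farthest libraries. Summed radial glia markers gave r = -0.458 and rho = -0.381 (permutation p = 9e-05 and 0.00064), but -0.175 in batch 1 against -0.587 in batch 2, and -0.322 without the 2 farthest. Summed neuron markers gave r = 0.263 and rho = 0.296 (permutation p = 0.0231 and 0.00979, adjusted 0.0532 and 0.0245), 0.203 in batch 1 and 0.406 in batch 2. No relation passed for the log2 library total (r = 0.160, rho = 0.116, permutation p = 0.163 and 0.318) or the ratio of embryonic to adult globin (r = 0.0184, rho = 0.0410, permutation p = 0.869 and 0.725).

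**Figure D5:**
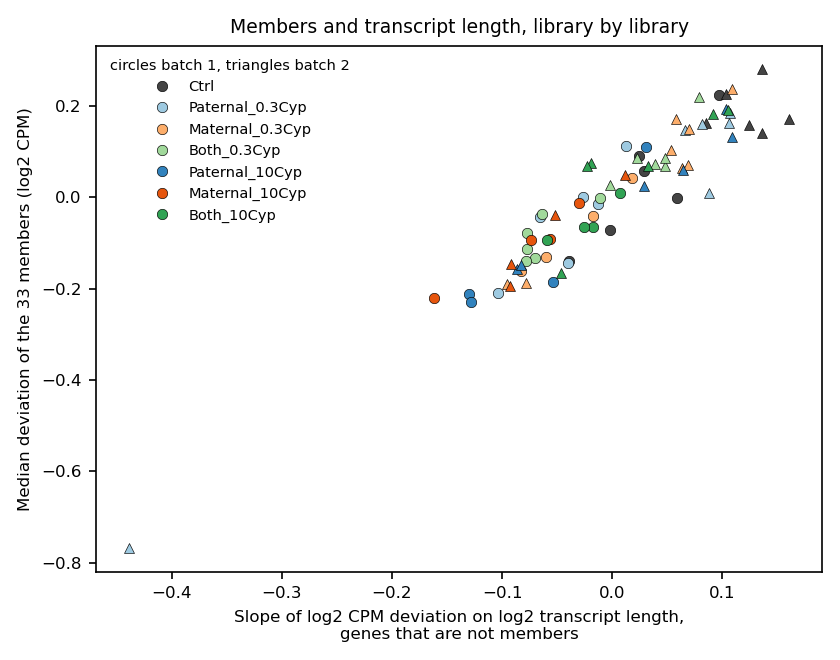
Median deviation of the 33 members (log2 CPM) in each of 76 libraries against that library's slope on transcript length over genes that are not members, coloured by group and shaped by batch. The points follow a line (r = 0.949), with Paternal_0.3Cyp 8 alone at the lower left at -0.77.

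Levels of Ctrl libraries ran from -0.14 to 0.28 in this median deviation (mean 0.11 ± 0.13, SD, n = 12), and those of Maternal_10Cyp from -0.22 to 0.05 (mean -0.09 ± 0.09, n = 8). With both batches pooled the groups overlapped, and the same was true of the length slope (0.08 ± 0.06 against -0.07 ± 0.05). In batch 1 the median deviations overlapped, from -0.14 to 0.22 in Ctrl and -0.22 to -0.01 in Maternal_10Cyp. In batch 2 they did not, from 0.14 to 0.28 in Ctrl and -0.19 to 0.05 in Maternal_10Cyp. Slopes in batch 2 ran from 0.0856 to 0.161 in Ctrl and from -0.0928 to 0.0118 in Maternal_10Cyp. In each batch alone most members again had negative fold changes: in Maternal_10Cyp 30 of 33 in batch 1 (median -0.13) and 32 in batch 2 (median -0.30), and 29 in both. Few passed in these smaller fits, 0 members in batch 1 in any group and 1, 2, 0, 2, 11 and 2 in batch 2 in the order Paternal_0.3Cyp, Maternal_0.3Cyp, Both_0.3Cyp, Paternal_10Cyp, Maternal_10Cyp and Both_10Cyp. These counts are not set beside the share of all genes called in the same fits.

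Members also varied together within groups. After group, batch and sex were taken out, the median correlation over the 528 pairs of members was 0.64 across the 76 libraries, and 520 pairs were positive. It was highest between Ash1l and Kmt2a (0.96), Kmt2a and Kmt2c (0.94) and Kmt2a and Nsd1 (0.93), all histone methyltransferases with long transcripts. Celf4 shared least with the others (mean 0.20), and the lowest pair was Tcf4 and Celf4 (-0.38). These libraries share the length slope above, with which Ash1l correlated at 0.95, Kmt2a at 0.90, Foxp1 at 0.55 and Celf4 at 0.48. All these correlations include Paternal_0.3Cyp 8, by far the lowest library in the members' median deviation (-0.77). They were not repeated without it, so how much they rest on that library is not known.

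Partners of the members in the same complexes included genes that rose and genes that fell in Maternal_10Cyp, where 20.4% of all genes rose and 20.4% fell. Of 26 subunits of the BAF complex besides Arid1b, 7 rose and 3 fell, with Smarce1 at 0.26 ± 0.05, Brd7 at 0.21 ± 0.04, Bcl7b at 0.23 ± 0.05 and Actl6a, the subunit of progenitor-type BAF, at 0.53 ± 0.12 (edgeR adjusted p = 8.67e-05, 0.000197, 0.000633 and 0.000686). Of 15 COMPASS partners of Kmt2a and Kmt2c, 4 rose and 5 fell. The shared core subunits Wdr5 (0.13 ± 0.04), Dpy30 (0.25 ± 0.07) and Ash2l (0.13 ± 0.04) rose, and the coactivator Ncoa6 fell by 0.30 ± 0.09 (edgeR adjusted p between 0.00256 and 0.00677). With the offsets none of either list fell (11.6% of all genes), and 9 BAF and 5 COMPASS genes rose (20.5%). Of the named subunits that rose, Brd7 (3625 bases) and Ash2l (3307) have transcripts above the median of 3235 for all genes tested. The others lie below it, from 789 bases (Dpy30) to 2919 (Smarce1). Of the 3 core subunits Dpy30 alone lost its call with the offsets (-0.03).

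Of 10 CHD family and HP1 partner genes 2 rose and 2 fell in Maternal_10Cyp, where 20.4% of all genes rose and 20.4% fell. The HP1 genes Cbx3 and Cbx1 rose (0.31 ± 0.07 and 0.25 ± 0.06), and Chd5, a remodeller of neurons, and Chd6 fell (by 0.57 ± 0.13 and 0.33 ± 0.09, edgeR adjusted p between 0.000447 and 0.00438 for the 4). Of 9 other histone methyltransferases 4 rose, namely Suv39h2 (0.45 ± 0.10), Kmt5a (0.23 ± 0.06), Kmt5c (0.21 ± 0.07) and Suv39h1 (0.14 ± 0.05), and 2 fell. Of 22 partners in the NCoR, CoREST, Mediator kinase and PR-DUB complexes 4 rose and 8 fell, with Hmg20b (0.50 ± 0.10), Rcor2 (0.50 ± 0.13) and Gps2 (0.29 ± 0.06) up and Med12l down by 0.46 ± 0.13. With offsets, the named genes of this paragraph that rose were still called, and Chd6 (-0.00) and Med12l (-0.13) were not.

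Of 28 other autism-linked gene regulators 2 rose and 9 fell in Maternal_10Cyp, where 20.4% of all genes rose and 20.4% fell. Their median of -0.15 became 0.05 with the offsets. The largest of those named was Nr3c2, the mineralocorticoid receptor, which fell by 0.94 ± 0.21 (edgeR adjusted p = 0.000469) and by 0.76 with the offsets. Ncoa1 fell by 0.49 ± 0.09, Rfx3 by 0.43 ± 0.09 and Zmynd8 by 0.27 ± 0.06. Autism-linked genes of synapses and channels stood lower: 13 of 16 fell in Maternal_10Cyp (20.4% of all genes), with a median of -0.48. In Paternal_0.3Cyp 13 fell (12.2%), in Maternal_0.3Cyp 14 (12.8%), in Both_0.3Cyp 13 (11.8%), in Paternal_10Cyp 12 (10.8%) and in Both_10Cyp 2 (1.58%). These genes are long, with a median transcript of 8836 bases against 7417 for the members. In the longest of 5 classes of length, 48.4% of the genes that are not members fell in Maternal_10Cyp. The synapse and channel genes that fell there included Nlgn3 (by 0.39 ± 0.06), Ank2 (0.65 ± 0.13) and Shank2 (0.50 ± 0.11, edgeR adjusted p between 5.82e-05 and 0.000310). With the offsets 11 of the 16 still fell in Maternal_10Cyp (11.6% of all genes) and the median was -0.20, where that of the 33 members was 0.05.

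Cell type markers moved in the same comparisons. In Maternal_10Cyp 4 of 10 neuron markers fell and 2 rose, with sums of 8092 to 8753 CPM against 8319 to 9527 in Ctrl. Of 8 radial glia markers 5 rose and 1 fell (1526 to 1873 CPM against 1230 to 1588). All 6 intermediate progenitor markers rose (324 to 388 CPM against 125 to 386), as did 5 of 8 genes of dividing cells (509 to 713 CPM against 333 to 701). All 4 oligodendrocyte precursor markers fell (84.1 to 109 CPM against 87.2 to 206). Of 6 endothelial markers 2 fell, and those of microglia, meninges and choroid plexus gave 0 calls in this group. Of 7 markers of interneurons and ventral forebrain 1 fell and 1 rose, and of 7 diencephalon markers 1 fell. In Maternal_10Cyp 20.4% of all genes fell and 20.4% rose. The part of these cell types in the members' fold changes was not tested.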

How the data were processed

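RNA-seq of dorsal forebrain was analysed in 76 libraries of 7 groups. The authors deposited 1 table of estimated counts per gene (expected counts, whole numbers in every cell). The submitters' processing notes name Salmon 1.10.1, Trim Galore 0.5.0 and the build mm10. The annotation release, the summing to genes and the strand setting are not given in the sources used here. Every gene had at least 10 counts in at least 3 libraries. Overlapping or antisense genes cannot be told apart if strand was not used.

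Counts were filtered with filterByExpr (14339 of 14823 genes tested), scaled by TMM and fitted with edgeR 4.0.16 (limma 3.58.1, R 4.3.3) by robust quasi-likelihood on group, batch and sex over all libraries, with 2-sided Benjamini-Hochberg adjusted p under 0.05. CPM values are TMM-scaled. Alternatives used DESeq2 1.42.0, limma voom, 2 surrogate variables (sva 3.50.0), other terms, offsets, thinning and left-out libraries. The code was tested on simulated data. Transcript length and G and C content are those of the longest transcript in GENCODE M21 (basic), found for 14327 of the genes tested, and deviations use log2 CPM with a pseudocount of 0.1. Library totals of 17.7 M to 41.4 M counts leave at least 244 counts per member, so the spread between libraries, not counting error, sets the precision.

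The members, gene lists and tests were chosen with earlier results of these data known. Named were up to 8 called members of lowest p per exposed group against Ctrl (the 3 lowest where fewer than 3 were called), up to 5 in the other comparisons, 4 genes per partner list in Maternal_10Cyp (1 gene is not reported here), and, with values in each group, the 8 members of lowest joint p and Cul3, which differed in sign from its role group. Other members were named after their values were seen.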

Additional observations from a re-analysis of the deposited data

Results flagged for a closer look

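Each member's CPM values, and the members' median deviation, were searched within groups of 8 to 10 libraries for a library whose gap to its nearest neighbour was large against the group's range (above Dixon's 95% value). Chance gives about 1 such library in 20 groups, and 3 were found in 102. Elavl3 was at 850 CPM (849.925) in Paternal_10Cyp 3, where the next library was at 780 and the lowest at 745. Zmynd11 was at 215 CPM in Maternal_10Cyp 4, where the next was at 203 and the lowest at 193. Arid1b was at 209 CPM in Both_10Cyp 10, where the next was at 183 and the lowest at 161.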

How the results depend on the processing

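Of 50 calls of a named member, 50 held with DESeq2 size factors, 50 with the DESeq2 test, 49 without the filter, 48 with limma, 47 after thinning, 35 without the batch term, 27 with the globin ratio as a covariate, 19 in batch 2 alone, 14 with G and C and length offsets and 0 in batch 1 alone or with 2 surrogate variables. Counts of called members, in the order Paternal_0.3Cyp, Maternal_0.3Cyp, Both_0.3Cyp, Paternal_10Cyp, Maternal_10Cyp and Both_10Cyp, were 6, 5, 4, 10, 18 and 2, and 8 in the joint test. They were 0 in all 7 in batch 1 alone and with 2 surrogate variables, where the members' median in Maternal_10Cyp was -0.13 and -0.19, against -0.19. In batch 2 alone they were 1, 2, 0, 2, 11 and 2, and 2 in the joint test. With only the compared groups in the fit Paternal_0.3Cyp had 0, Maternal_0.3Cyp 11, Both_0.3Cyp 16 and Both_10Cyp 0. With limma Both_0.3Cyp had 11, Paternal_10Cyp 16 (15 lower, 1 higher), the joint test 16 and Both_10Cyp against Maternal_10Cyp 9. Without the batch term Paternal_10Cyp had 3, Both_10Cyp 0 and the joint test 2. With the globin ratio the joint test had 2, and Paternal_0.3Cyp, Maternal_0.3Cyp, Both_0.3Cyp and Both_10Cyp had 0. After thinning Both_10Cyp had 1. The cause of these moves was not tested. Counts under the alternatives in this section stand without the share of all genes called in the same setting. They therefore do not show moves particular to the members.

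Calls in either direction with G and C and length offsets were 2 in Maternal_0.3Cyp, 1 in Both_0.3Cyp, 2 in Paternal_10Cyp, 7 in Maternal_10Cyp, 1 in Both_10Cyp and 3 in the joint test. With length offsets alone they were 2, 1, 3, 7, 1 and 3, and with G and C offsets alone the joint test had 4. Medians became 0.0196 in Maternal_0.3Cyp, 0.041 in Both_0.3Cyp (0.0343 with length alone), 0.0150 in Paternal_10Cyp (0.0120) and 0.0451 in Maternal_10Cyp (0.0275). Directions turned for Arid1b in Maternal_0.3Cyp (0.0028), Paternal_10Cyp (0.0553, and 0.0178 with length alone) and Maternal_10Cyp (0.14 and 0.12), for Rai1 in Paternal_10Cyp (0.0186) and Maternal_10Cyp (0.0451), and in Maternal_10Cyp for Tcf20 (0.0558 and 0.0434), Tbl1xr1 (0.0720 and 0.10), Nsd1 (0.13 and 0.13) and Setd5 (0.0397 and 0.0275). Celf4 in Paternal_0.3Cyp turned to 0.0190 with 2 surrogate variables. Leaving out the libraries rich in diencephalon markers, Both_0.3Cyp had 2, Paternal_10Cyp 3, Both_10Cyp 0 and the joint test 3, and without those high in embryonic globin Both_10Cyp had 0.

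Leaving out 1 library gave 5 to 9, 3 to 6, 1 to 5, 3 to 12, 15 to 20 and 0 to 2 calls and 2 to 16 in the joint test, and 0 in every comparison without Ctrl. The medians then ran from -0.14 to -0.07, -0.13 to -0.08, -0.12 to -0.07, -0.17 to -0.11, -0.22 to -0.17 and -0.12 to -0.07. Replicate numbers did not pair the libraries: 16 of 64 same-numbered pairs correlated above 0.1, with a median of -0.02. With the number as a replicate block 13 members were called in Paternal_0.3Cyp, 8 in Both_0.3Cyp, 3 in Paternal_10Cyp, 10 in Maternal_10Cyp and 1 in Both_10Cyp. The blocked medians were -0.0168 in Both_10Cyp (21 of 33 negative), -0.0943 in Maternal_10Cyp, -0.0804 in Paternal_10Cyp and -0.0719 in Maternal_0.3Cyp.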
